A study of Mus musculus with 15 samples.

Results

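Ribosome binding was examined for 10 mouse genes that make, conjugate and transport bile acids in the liver, and the daily rhythm of Cyp7a1 was set against the other 9. The genes are Cyp7a1, Cyp8b1, Cyp27a1, Cyp7b1, Hsd3b7, Akr1d1, Slc27a5, Baat, Slc10a1 and Abcb11. They were chosen by symbol and account for 12 of the 28167 RefSeq transcripts and 10 of the 20101 named genes that were counted. All 12 transcripts passed the filter of a mean of at least 10 reads per library. Wild-type male C57BL/6N mice of 8 to 10 weeks were kept for 2 weeks in 12 h of light and 12 h of dark, moved to constant darkness for 24 h, and sampled every 4 h from CT0 to CT24, where CT is circadian time in h. Frozen liver tissue of 2 mice per time point, a piece of it for each library, gave 14 libraries of ribosome-protected fragments, with no mutant or treated group. Counts added over all transcripts came to 40593197 to 90458783 per library. A fragment on overlapping transcripts can enter such a sum more than once, and the study reports a lower range of reads mapped to mRNA. Each value is the number of fragments on a transcript, so the amount of an mRNA and the ribosomes on each copy cannot be told apart here, nor can fewer cells of a type and less RNA per cell.

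Bile acids are made from cholesterol in hepatocytes. CYP7A1 starts the classical route by hydroxylating cholesterol and is its rate-limiting enzyme, whereas CYP27A1 and CYP7B1 start the alternative route. HSD3B7 and AKR1D1 modify the sterol ring, CYP8B1 adds the hydroxyl group that makes cholic acid, and SLC27A5 and BAAT couple the finished acids to coenzyme A and then to taurine or glycine. NTCP, the product of Slc10a1, takes bile acids up from the blood, and BSEP, the product of Abcb11, exports them into bile. Bile acids return to the liver with meals, and the receptor FXR, encoded by Nr1h4, represses Cyp7a1 when they are abundant.

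Libraries were checked before the rhythms were read. All 6 hepatocyte markers were strongly present (summed level of 32800 to 46300 CPM per library), where CPM is the usual depth-scaled read count of the whole transcript, with library sizes scaled by TMM. Markers of bile duct cells summed to 11 to 24.3 CPM, of Kupffer cells to 55.8 to 103 CPM and of endothelial or stellate cells to 171 to 259 CPM, and erythroid markers to 38.7 to 77.2 CPM. The small intestine list summed to 18.8 to 32.2 CPM, nearly all of it Fabp2 and Slc10a2, while Fabp6 and Sis were at 0 in all libraries. The 6 pancreatic acinar markers summed to 2920 CPM in CT20 replicate 2, 61.5 CPM in CT24 replicate 2, 30.5 CPM in CT12 replicate 2 and 2.55 to 8.84 CPM in the other 11 libraries, and all 6 were called rhythmic. Of the other lists, 1 hepatocyte and 1 bile duct marker were called, and none of the Kupffer, endothelial or stellate, small intestine or erythroid markers that were tested. All nonzero counts of CT16 replicate 2 were even, where the other 13 libraries had 48.9% to 50.4% even counts. Without CT16 replicate 2 and CT20 replicate 2, an alternative chosen after seeing the data, the same 5 of the 10 genes as in all 14 libraries were called rhythmic, with a peak-to-trough log2 difference of 2.79 for Cyp7a1, 1.66 for Cyp8b1, 1.49 for Hsd3b7, 0.79 for Abcb11 and 0.72 for Akr1d1.

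The transcripts lie on 8 chromosomes of GRCm38.p6, and none of their exons overlaps an exon of another annotated gene. Cyp7a1 spans chr4:6265612-6275632 on the minus strand in 6 exons. Cyp8b1 is a single exon at chr9:121914356-121916305, minus strand. Cyp27a1 spans chr1:74713535-74737897 on the plus strand and Cyp7b1 chr3:18071950-18243338 on the minus strand. Hsd3b7 spans chr7:127800609-127803802 and Akr1d1 chr6:37530173-37568815, both on the plus strand. Slc27a5 spans chr7:12988346-12998192 and Baat chr4:49489418-49506558, both on the minus strand. Slc10a1 spans chr12:80953185-80968079 and Abcb11 chr2:69238282-69342616 with 28 exons, both on the minus strand. Slc10a1 and Hsd3b7 each have 2 counted transcripts that overlap. In every library the 2 Slc10a1 transcripts had the same 5′UTR reads (7332 each in all), and the 2 Hsd3b7 transcripts the same 3′UTR reads (626 each). Reads in these shared regions were thus counted for both transcripts, so the 2 are not independent. The transcript with more reads is given unless stated.

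Ribosome binding of Cyp7a1 rose steeply between CT8 and CT12. In the 2 mice it was 21.2 and 20.9 CPM at CT0, 17.4 and 11.7 at CT4, 22.6 and 36.8 at CT8, 139 and 89.4 at CT12, 88.4 and 133 at CT16, 45.9 and 54.5 at CT20, and 44 and 42.2 at CT24. The 4 libraries of CT12 and CT16 were above the other 10, and the mean at CT12 (114 CPM ± 35.2, SD, n = 2) was 7.85 times that at CT4 (14.6 CPM ± 4.02, n = 2). A cosine of period 24 h, fitted to the counts with edgeR's quasi-likelihood method, peaked at CT15.4 ± 0.55 h (SE) and gave a log2 difference between peak and trough of 2.74, or 6.7-fold (adjusted p = 5.77e-05). In size, this difference stood at percentile 99 of the 17299 transcripts tested. The replicate series, fitted apart, peaked at CT15.3 and CT15.5. The low at the start of the day was not the same on both days: both mice of CT24 were above both mice of CT0, and the mean was 2.05 times as high.

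The genes that came next in size, Cyp8b1 and Hsd3b7, were low where Cyp7a1 was high. Cyp8b1, which decides how much cholic acid is made, had 202 and 214 CPM at CT0, 192 and 231 at CT4, 123 and 124 at CT8, 65.7 and 87.2 at CT12, 67.1 and 106 at CT16, 182 and 167 at CT20, and 217 and 198 at CT24. The lowest libraries were those of CT12 and CT16, where Cyp7a1 was highest. The fitted peak was at CT1.12 ± 0.43 h and the peak-to-trough difference was 1.56 (2.94-fold, edgeR adjusted p = 7.2e-06). This peak lay 9.73 h after that of Cyp7a1, with a standard error of 0.7 h for the difference. That error treats the 2 fits as independent, although both come from the same libraries.

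Hsd3b7, whose enzyme acts on the product of CYP7A1 in the next step of the classical route, had 216 and 242 CPM at CT0, 287 and 268 at CT4, 285 and 189 at CT8, 127 and 137 at CT12, 86 and 84.3 at CT16, 161 and 148 at CT20, and 208 and 182 at CT24. The libraries of CT16 were below the other 12. The fitted peak was at CT3.97 ± 0.41 h, 11.4 h from that of Cyp7a1, and the difference was 1.53 (2.89-fold, edgeR adjusted p = 2.26e-05). Its other transcript, which overlaps it, gave 1.51 and CT4.01.

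The export pump gene Abcb11 was also lowest at CT16, with a smaller range. It had 193 and 207 CPM at CT0, 256 and 264 at CT4, 239 and 274 at CT8, 167 and 181 at CT12, 156 and 143 at CT16, 185 and 219 at CT20, and 211 and 245 at CT24. The libraries of CT12 and CT16 were below the other 10, and the fitted peak lay at CT4.35 ± 0.63 h with a difference of 0.72 (1.65-fold, edgeR adjusted p = 0.00454). Mice of one time point differed by 1.11-fold on average, the least among the 10 genes. At CT16, where Hsd3b7 and Abcb11 were lowest, the mean summed markers of bile duct cells (11.2 CPM), Kupffer cells (67.4 CPM), endothelial or stellate cells (183 CPM) and erythroid cells (44.3 CPM) were at their lowest as well. Their highest means were 19.9 CPM at CT0, 93.9 CPM at CT24, 249 CPM at CT0 and 68.7 CPM at CT4. The acinar sum was lowest at CT16 too (2.87 CPM), whereas the small intestine sum was highest there (29 CPM, against 20 CPM at CT0). The hepatocyte sum was lowest at CT4 (33300 CPM), where Cyp7a1 was lowest, and highest at CT24 (43900 CPM). The part of these markers in the results was not tested.

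Akr1d1, the 5β-reductase of the sterol ring, was lowest from CT4 to CT12. It had 61 and 65.2 CPM at CT0, 53.5 and 44.9 at CT4, 49.9 and 44.8 at CT8, 58.1 and 40.9 at CT12, 76.7 and 76.8 at CT16, 65.8 and 81.1 at CT20, and 60.8 and 82.1 at CT24. Values at CT4 to CT12 were below all those of the other times, and the peak was fitted at CT19.5 ± 0.71 h, 4.1 h after that of Cyp7a1 (difference of 0.80, 1.74-fold, edgeR adjusted p = 0.006). With JTK_CYCLE, the rank test named in the study's methods and rewritten here, the Benjamini-Hochberg q was 0.0777, so this call was lost. Cyp7a1, Cyp8b1, Hsd3b7 and Abcb11 kept theirs with q from 0.0132 to 0.0437, beside 3.69% of all transcripts called by that test. Before the Benjamini-Hochberg step, the JTK_CYCLE p, adjusted only for the phases tried, was 0.00481 for Akr1d1 and 0.0439 for both Cyp27a1 and Cyp7b1. The study set an adjusted P under 0.05 and reported more rhythmic transcripts than this run called.

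**Figure D1:**
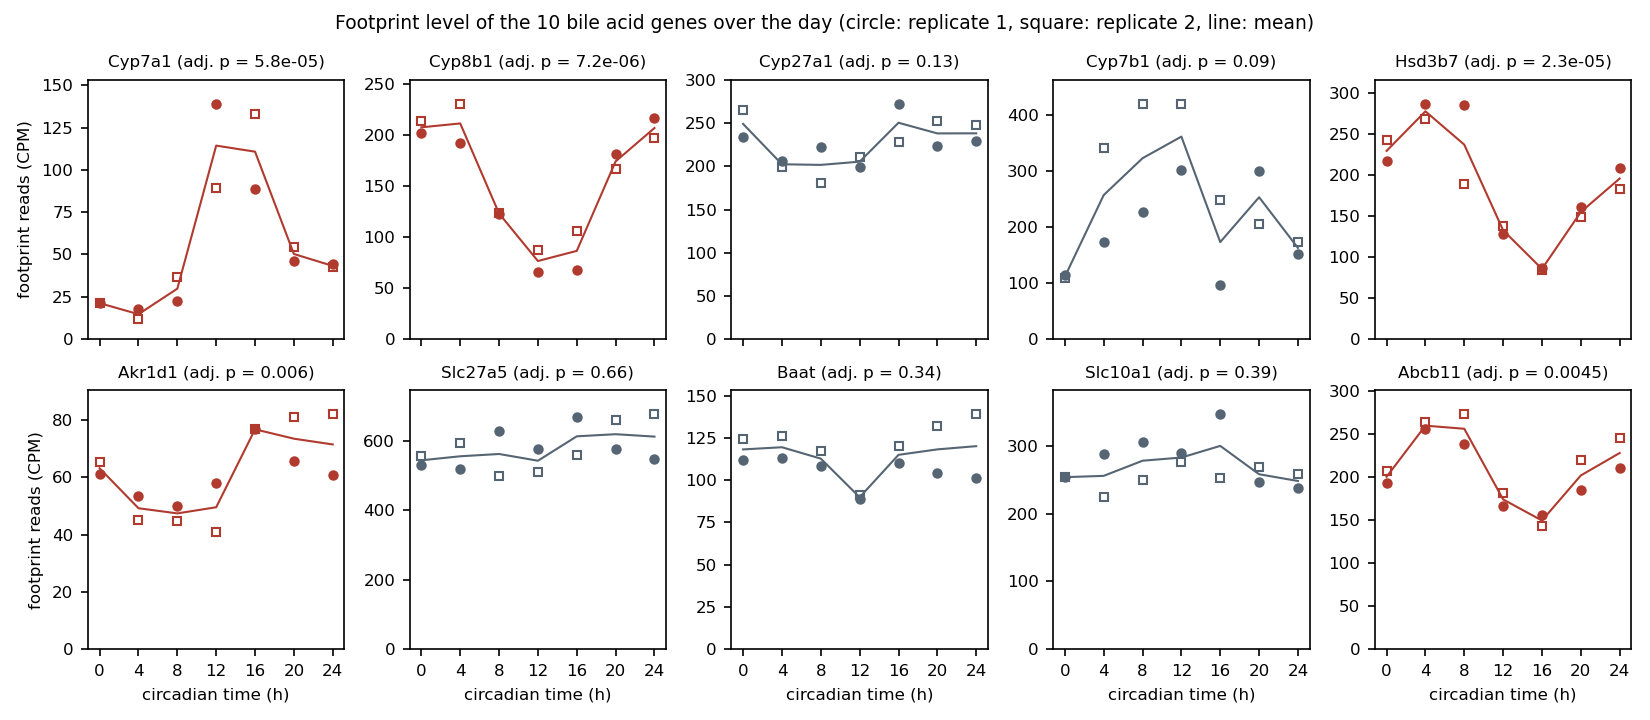
Footprint reads in CPM (y axis, from 0) against circadian time in h for the 10 genes. Circles and squares are the 2 mice of a time point, the line joins their means, and red marks the 5 genes with an edgeR adjusted p under 0.05: Cyp7a1 is high at CT12 and CT16, where Cyp8b1, Hsd3b7 and Abcb11 are low.

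In all, 5 of the 10 genes were called rhythmic by the cosine fit, beside 11.3% of all 17299 transcripts tested. Since these genes are highly expressed, the share among the 2978 transcripts that averaged 1000 reads or more, 22.2%, is the nearer background. The median peak-to-trough difference was 0.76 over the 10 genes, 0.44 over all transcripts tested and 0.32 over the 2978. A test of the 7 time points as separate levels (edgeR) called 4 of the 10, Cyp7a1, Cyp8b1, Hsd3b7 and Abcb11, beside 7.08% of all transcripts. The Abcb11 call of this test (adjusted p = 0.0174) was lost when library totals replaced TMM (adjusted p = 0.116), without CT4 replicate 2 (0.0584) and without CT16 replicate 2 (0.0534), while Akr1d1 passed with library totals (0.0225) and without CT12 replicate 1 (0.0351).

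The other 5 genes did not pass. Cyp7b1, the oxysterol hydroxylase of the alternative route, had the widest spread between mice: 114 and 109 CPM at CT0, 173 and 342 at CT4, 227 and 420 at CT8, 303 and 421 at CT12, 97.2 and 249 at CT16, 301 and 206 at CT20, and 152 and 173 at CT24. Mice of one time point differed by 1.56-fold on average and by 2.56-fold at CT16, so that a fitted difference of 1.09 with a peak at CT10.5 had an adjusted p of 0.0904 (edgeR). It passed without CT16 replicate 1 (adjusted p = 0.0209) or CT20 replicate 1 (0.0184). In the time-point test it had an adjusted p of 0.0554, and passed without either mouse of CT4 or CT16, without CT8 replicate 1 or without CT20 replicate 2 (0.00859 to 0.0453). Without CT16 replicate 2 and CT20 replicate 2 together the time-point test gave 0.00474. With library totals in place of TMM the fitted difference of Cyp7b1 was 0.67.

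Cyp27a1, the mitochondrial hydroxylase that acts both on cholesterol and on the side chain, ranged from 181 to 273 CPM with a median of 226 over the 14 libraries. Its fitted difference was 0.36 with a peak at CT19.9 (edgeR adjusted p = 0.126, unadjusted permutation p over the time labels = 0.0125). Baat, the conjugating enzyme, ranged from 88.6 to 139 CPM and had its lowest pair at CT12, with 88.6 and 91.2 CPM, below all its other 12 libraries. Its fitted difference was 0.28 (edgeR adjusted p = 0.341).

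Slc27a5, the bile acid coenzyme A ligase, ranged from 498 to 678 CPM, with a fitted difference of 0.17 (edgeR adjusted p = 0.662). Slc10a1, the uptake transporter, ranged from 224 to 348 CPM with a difference of 0.24 (edgeR adjusted p = 0.392). The mice of the highest and lowest mean time did not overlap for Slc27a5 (578 and 661 CPM at CT20, 576 and 510 at CT12), but the replicate series peaked at CT14.2 and CT22. For Slc10a1 they overlapped, with 348 and 253 CPM at CT16 and 238 and 259 at CT24, and the replicate series peaked at CT11.8 and CT16.4. The size of these differences depended on the scaling: with library totals they were 0.82 for Cyp27a1, 0.73 for Baat, 0.59 for Slc27a5 and 0.36 for Slc10a1, and none of the 4 passed. Among the called genes, library totals gave 1.20 for Akr1d1, 1.95 for Cyp8b1, 1.68 for Hsd3b7, 0.84 for Abcb11 and 2.69 for Cyp7a1, and moved the Abcb11 peak to CT2.13. Whether the daily course of Abcb11 differs from that of Slc10a1 was not tested.

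**Figure D2:**
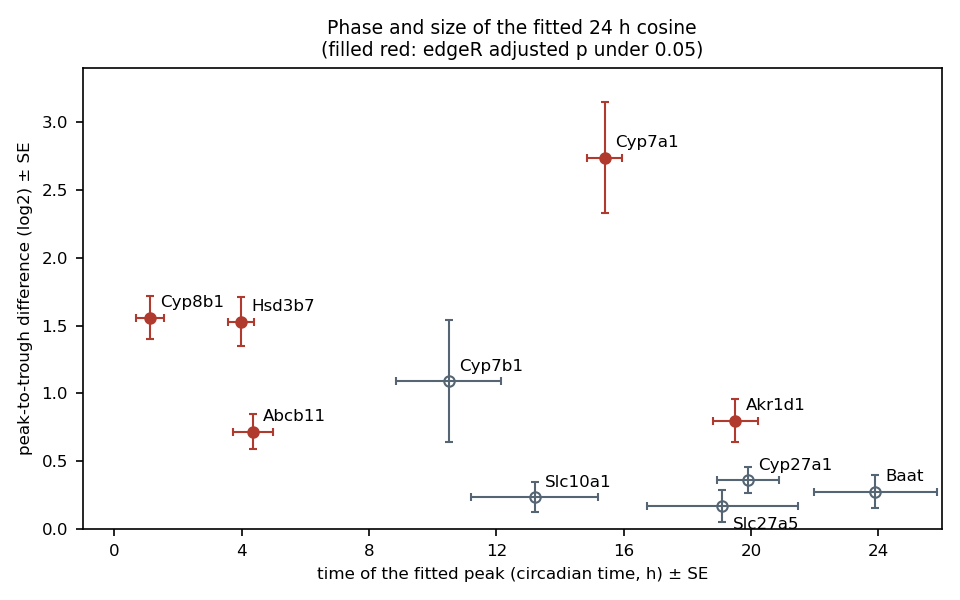
Fitted log2 difference between peak and trough (y axis) against the time of the fitted peak in circadian h (x axis), each with its SE, for the 10 genes; filled red points passed the edgeR threshold. Cyp7a1 at CT15.4 stands apart from Cyp8b1, Hsd3b7 and Abcb11, which peak from CT1.12 to CT4.35.

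Ratios within a library do not depend on how libraries are scaled, and were used to set Cyp7a1 against each of the other 9 genes. For levels between genes, CDS density is used, the reads of the coding sequence (CDS) divided by its length and the library size (RPKM). The density of Cyp7a1 over that of Cyp8b1 was 0.104 and 0.0965 at CT0, 0.0901 and 0.0505 at CT4, 0.183 and 0.297 at CT8, 2.09 and 1.02 at CT12, 1.29 and 1.26 at CT16, 0.25 and 0.321 at CT20, and 0.203 and 0.215 at CT24. The 2 genes thus changed places: Cyp7a1 carried more ribosomes per length in the 4 libraries of CT12 and CT16 and fewer in the other 10. A cosine fitted to the log2 ratio of reads spanned 4.20 ± 0.48 (SE), or 18.4-fold, with a peak at CT14.6.

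The ratio to Hsd3b7 moved as widely. It was 0.0729 and 0.0645 at CT0, 0.0457 and 0.0326 at CT4, 0.0595 and 0.147 at CT8, 0.816 and 0.483 at CT12, 0.766 and 1.19 at CT16, 0.213 and 0.273 at CT20, and 0.159 and 0.174 at CT24, with a fitted difference of 4.31 ± 0.52 (19.8-fold). Only 1 library, at CT16, had more Cyp7a1 than Hsd3b7 per length. Cyp7a1 over Abcb11 ran from 0.12 to 2.55 and was above 1 in the 4 libraries of CT12 and CT16, with a fitted difference of 3.49 ± 0.45 (11.2-fold).

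For the other 6 genes the fitted difference lay between 2.52 (Akr1d1) and 2.97 (Baat), near the 2.74 of Cyp7a1 itself. Cyp7a1 exceeded Akr1d1 per length in 3 libraries, Baat in 2 and Cyp7b1 in 1, and never exceeded Cyp27a1, Slc10a1 or Slc27a5. All 9 ratios passed in limma, but so did 96.5% of the 17298 ratios of Cyp7a1 to any transcript, and every ratio holds the same Cyp7a1 counts, so these calls do not set the 9 genes apart from other transcripts. A permutation test over the time labels, chosen after seeing the data, gave an unadjusted p of 5e-05 for Cyp8b1, 9e-05 for Hsd3b7 and Abcb11, and 0.00024 to 0.00197 for the other 6. What set the pairs apart was the size: the differences against Cyp8b1 and Hsd3b7 stood at percentiles 96.3 and 96.8 of all ratios, that against Abcb11 at 88.3, and the other 6 at 18.2 to 62.

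**Figure D3:**
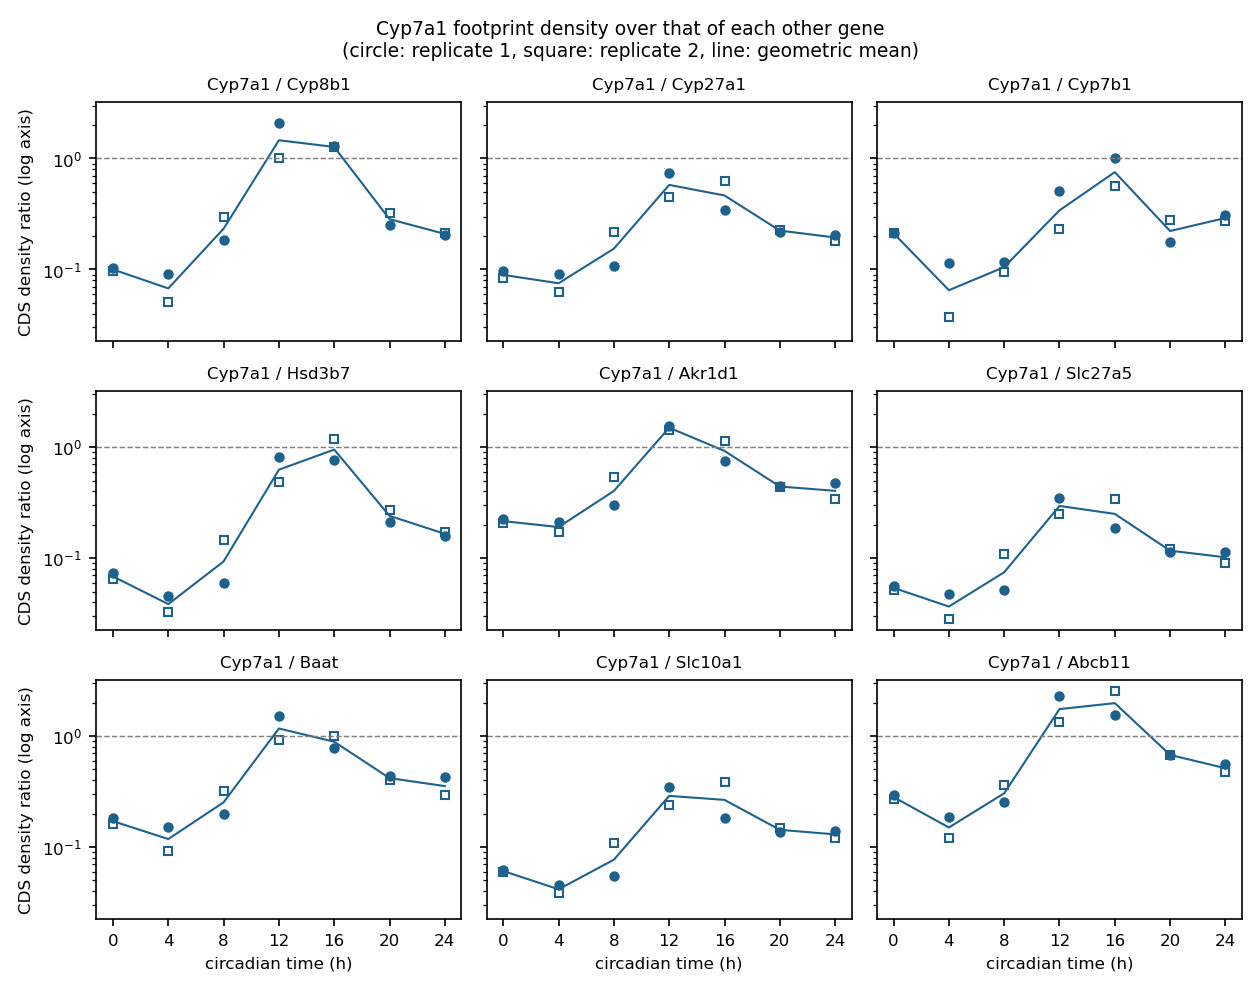
CDS density of Cyp7a1 divided by that of each other gene (y axis, log scale, no unit) against circadian time in h. Circles and squares are the 2 mice, the line is their geometric mean and the dashed line marks equal density: the ratio to Cyp8b1 runs from 0.0505 to 2.09 and that to Hsd3b7 from 0.0326 to 1.19.

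Averaged over the day, the order of CDS density was Slc27a5 (263 RPKM ± 25.8, SD, n = 14), Slc10a1 (237 ± 29), Hsd3b7 (163 ± 58.6), Cyp7b1 (139 ± 66.1), Cyp27a1 (139 ± 15.9), Cyp8b1 (102 ± 37.9), Baat (76.3 ± 9.83), Akr1d1 (61.2 ± 13.8), Abcb11 (50.4 ± 10.1) and Cyp7a1 (35.7 ± 27.4). The ligase and the uptake transporter, neither called rhythmic, thus carried most ribosomes per length, and the rate-limiting enzyme the fewest. Neighbours were mostly not separate: the mean log2 ratio exceeded its own SD over libraries only for Baat over Akr1d1 (0.34 ± 0.30, higher in 13 of 14 libraries). Slc10a1 over Hsd3b7 was 0.63 ± 0.66 and also higher in 13 of 14. Slc27a5 over Slc10a1 was 0.15 ± 0.18 and was higher in 10 of 14. Per whole transcript length Slc27a5 and Slc10a1 stayed highest and Cyp7a1 lowest, but the order between them shifted. Hsd3b7 (102) then lay below Cyp27a1 (119), and Akr1d1 (22.7) below Abcb11 (42.7).

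The place of Cyp7a1 in this order changed with the hour. Its density was 13.7 and 13.5 RPKM at CT0, 11.4 and 7.62 at CT4, 90.9 and 58.1 at CT12, and 57 and 87.4 at CT16. By mean density it was last of the 10 at CT0, CT4, CT8, CT20 and CT24, rose to rank 6 at CT12 and stood at rank 8 at CT16. Hsd3b7 went the other way, from rank 2 at CT4 to rank 7 at CT16. Even the lowest mean, that of Cyp7a1, was above 91.8% of all transcripts tested.

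**Figure D4:**
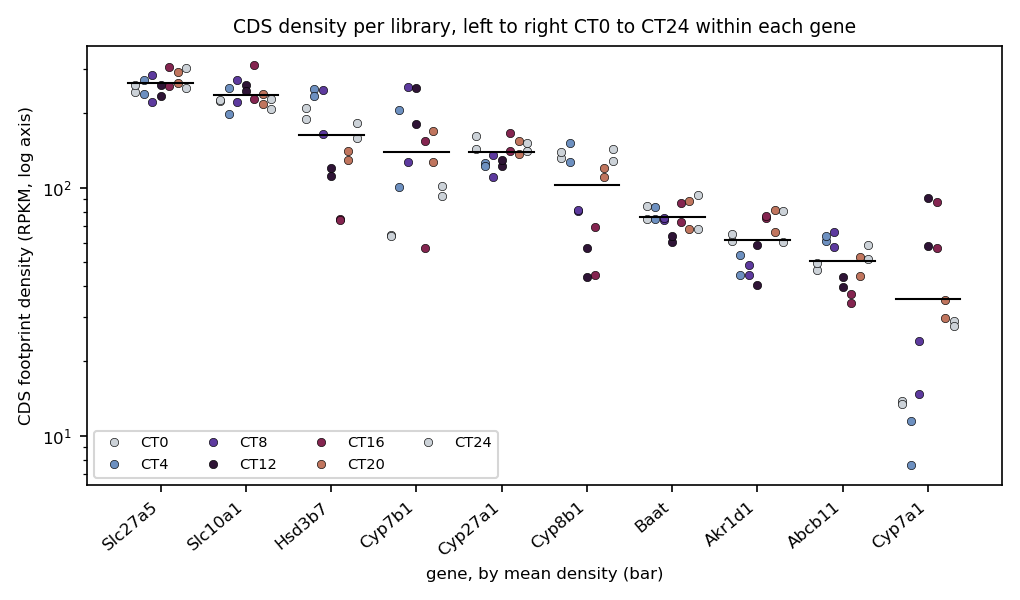
CDS density in RPKM (y axis, log scale) of each gene in the 14 libraries, ordered by mean density (bar); within a gene, points run from CT0 on the left to CT24 on the right. Cyp7a1 covers the widest fold range, 7.62 to 90.9 RPKM, and Slc27a5 stays between 222 and 307 RPKM.

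Because the study asked how ribosomes on 5′UTRs relate to coding sequences, the split of reads was described as well. Of reads in the 5′UTR and CDS, the 5′UTR held 14.8% ± 2.5 (SD, n = 14) in Baat and 9.51% ± 2.95 in Cyp7b1. The share was 5.2% ± 1.37 in Slc27a5, 4.03% ± 0.80 in Abcb11 and 3.3% ± 0.87 in Slc10a1. It was lowest in Cyp7a1 (1.01% ± 0.66), where the 5′UTR held 4 to 100 reads per library. The median over 16838 transcripts averaging 10 or more CDS reads was 3.88%.

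Per base, the 5′UTR was as densely covered as the CDS or more so in Abcb11 (ratio of 1.3) and Cyp7b1 (1.15), against a median of 0.346 over transcripts, and only 0.229 in Cyp7a1. Reads in 3′UTRs were 0.0421% to 0.394% of each gene's reads. In no member did the 5′UTR to CDS ratio pass as rhythmic, nor in any of the 7640 transcripts tested (limma, 0% called, 373 at an unadjusted p under 0.05). The lowest unadjusted p among the main transcripts was 0.0667, for Slc10a1.

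**Figure D5:**
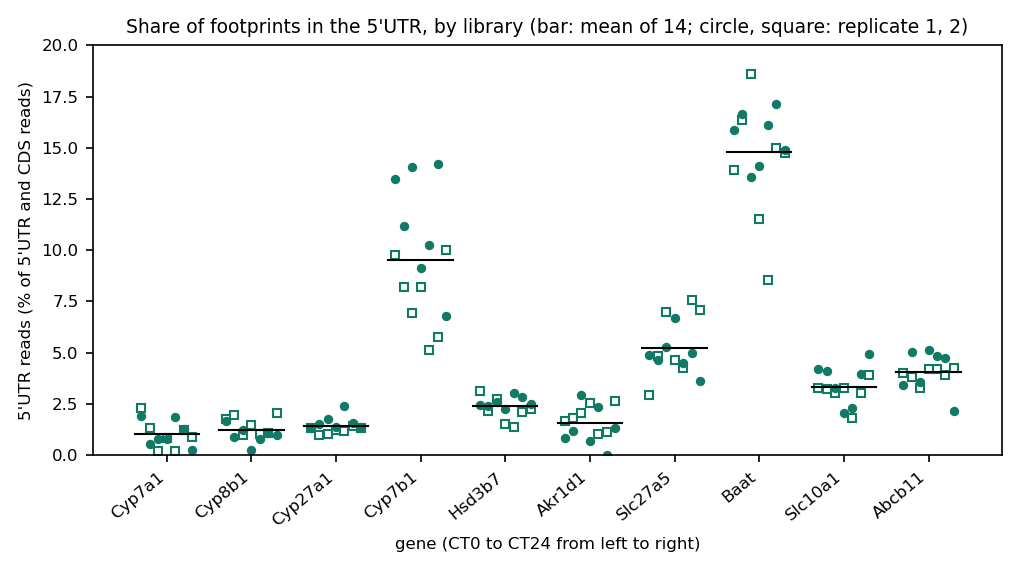
Reads in the 5′UTR as percent of 5′UTR and CDS reads (y axis) for each gene in the 14 libraries; circles and squares are the 2 mice, time runs from left to right within a gene, and the bar is the mean. The means of Baat (14.8%) and Cyp7b1 (9.51%) lie above the other 8 means, though the lowest Cyp7b1 library (5.11%) is below the Slc27a5 mean (5.2%).

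An upstream open reading frame (uORF) is a start codon with its stop codon ahead of the main one. The annotated 5′UTRs were searched for ATG, and the starts of both uORFs are shown beside the main starts of their genes, followed by the main starts of 4 genes without an upstream ATG. They are read 5′ to 3′ from GRCm38.p6, with start codons, and for the uORF its stop codon, in capitals. Hsd3b7 has a uORF of 12 bases, at chr7:127800636-127800647, and Abcb11 one of 105 bases whose start lies 119 bases before the main one.
Hsd3b7 uORF: cctATGtacatcTAG
Hsd3b7 main start: cagctgggcATGgcag
Abcb11 uORF start: ttattaccATGaaaa
Abcb11 main start: gcagacaccATGtctg
Cyp7a1 main start: ttttgcaaaATGatga
Cyp8b1 main start: agcctagccATGacgc
Baat main start: ctgcaaaaaATGgcca
Cyp7b1 main start: ctcgtcgggATGcagg

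Baat and Cyp7b1, with the highest 5′UTR shares, have no ATG in the annotated 5′UTR, and neither have Cyp7a1, Cyp8b1, Cyp27a1 and Slc10a1. Slc27a5 has 1 whose frame runs into the CDS, and Akr1d1 has 1 in frame with its CDS. Reads at single positions are not in the counts, so which starts were used cannot be told. Of the 2 genes with a uORF inside the 5′UTR, Abcb11 had 4.01% and Hsd3b7 2.42% of all reads in the 5′UTR. The other Hsd3b7 transcript, which holds the same uORF in a 5′UTR of 142 bases, had 8.28%.

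For 6 of the 10 genes, RefSeq promoter windows of GRCm38.p6 (250 bases before to 50 after the start) were at hand, 7 windows in all, as Slc10a1 has 2. They were searched on both strands, since several of these genes peaked together. CAAAGTCCA, a sequence that the liver receptor HNF4A binds, occurred in that of Cyp8b1 alone, and in 0.475% of all 32851 windows. TTATGCAA, a form of the D-box bound by clock output factors and by C/EBP proteins, occurred in that of Akr1d1 and 1 of the 2 of Slc10a1, and in 0.743% of all windows. AGGTCA, a half-site of nuclear receptors, occurred in those of Abcb11 and Akr1d1 and in the same Slc10a1 window, and in 16.3% of all. Of the 7 matches, 4 are shown, 1 for each gene, with 6 bases on each side and the motif in capitals. Distances are those of the first base in capitals, so the TTATGCAA match of Slc10a1 runs across the start into the transcript. The other AGGTCA matches lay 232 and 210 bases before the start of Akr1d1, both on the opposite strand, and 87 bases before that of Slc10a1.
Cyp8b1, 67 bases before the start (chr9:121916358-121916378): tctgagCAAAGTCCAagggca
Akr1d1, 8 bases before the start (chr6:37530159-37530178): gttcttTTATGCAAtaggca
Slc10a1, opposite strand, 4 bases before the start (chr12:80968070-80968089): tgcaggTTGCATAAtctttt
Abcb11, opposite strand, 56 bases before the start (chr2:69342661-69342678): ggccatTGACCTataagc

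CACGTG, the E-box of the clock, was in none of the 7 windows and in 7.15% of all, and neither TTATGTAA (0.938% of all), TTACGTAA (0.119%), TCAAGGTCA (0.423%) nor the inverted repeat of AGGTCA with 1 base between (0.00913%) was in any of the 7. The windows of Cyp7a1, Cyp7b1, Baat and Slc27a5 were not analysed here.

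A wider list of 45 bile acid genes was fitted in the same way, of which 41 passed the count filter and 11 were called rhythmic, beside 11.3% of all transcripts (22.2% of those averaging 1000 reads or more). By role, 4 of 13 enzymes, 4 of 14 transporters and 3 of 14 regulators were called. With library totals in place of TMM 3 of the 41 were called, beside 1427 of all 17299 transcripts in that fit. The TMM factors themselves had a fitted daily log2 range of 0.46 with a peak at CT22.4. Their mean log2 was 0.44 at CT0 and -0.3 at CT12, and the part of this swing in the TMM peaks was not tested. None of the 4 transporters passed with library totals, and of the 11 genes only Cyp39a1 and Acox2 did. The third was Slc10a2, a bile acid transporter not called with TMM and named after its value was seen. With JTK_CYCLE only Acox2 (q = 0.025) and Abcc2 (q = 0.0132) of the 11 kept the call, and the other 9 had q from 0.0777 to 0.372. The same 5 of the 10 genes above were called under either scaling.

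Cyp39a1, an oxysterol 7α-hydroxylase, had 22.9 CPM ± 10.8 (SD, n = 2) at CT16 and 6.55 ± 0.73 at CT8, with a peak at CT17.9 and a difference of 1.62 (edgeR adjusted p = 0.00369). Acox2, which shortens the side chain in peroxisomes, had 124 ± 3.22 at CT4 and 74.7 ± 7.92 at CT12, near the course of Cyp8b1 (0.60, adjusted p = 0.00491). Akr1c14 and Akr1c6, aldo-keto reductases, peaked at CT14 and CT8.4 with differences of 0.75 and 0.57 (adjusted p = 0.00991 and 0.0255). Scp2, the listed enzyme gene with most reads, did not pass (0.21, adjusted p = 0.469).

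The transporter genes that were called peaked between CT8.7 and CT11.4 under TMM. Abcc2, the MRP2 pump for conjugated anions, had 256 CPM ± 9.85 at CT12 and 120 ± 27.6 at CT0 (1.02, edgeR adjusted p = 5e-05). The sterol exporters Abcg8 and Abcg5 differed by 1.35 and 0.93 (adjusted p = 0.00186 and 0.0168), and the uptake transporter Slco1b2, the one with most reads, by 0.80 (adjusted p = 0.00647). With library totals these differences were 0.59 for Abcc2, 0.94 for Abcg8, 0.50 for Abcg5 and 0.35 for Slco1b2. Their peaks lay between those of Abcb11 and Cyp7a1.

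Among regulators, the FXR gene Nr1h4 had 41.7 CPM ± 0.55 at CT16 and 22.7 ± 2.99 at CT4, with its peak at CT15.8 (0.81, edgeR adjusted p = 0.00295). With library totals its peak was at CT17.9 with a difference of 0.88, and the call was lost (adjusted p = 0.0662). Klb, a co-receptor for the gut hormone FGF15, differed by 0.73 (adjusted p = 0.0456) and Ppargc1a, a coactivator, by 1.66 at a mean of 79.4 reads (adjusted p = 0.0396). With each of the 14 libraries left out in turn, Klb kept the call in 4 fits and Ppargc1a in 7, with adjusted p up to 0.283 and 0.269. Without CT8 replicate 1 the Klb difference was 0.45. Abcg5 lost it without CT12 replicate 1 (0.0708), and Akr1c6 without CT8 replicate 1 (0.103) or CT20 replicate 1 (0.0527). The regulator with most reads, Hnf4a, did not pass (0.36, adjusted p = 0.349).

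The transcripts most like Cyp7a1 were sought over the 14 libraries by Pearson correlation of log2 CPM, among 12029 transcripts averaging 100 reads or more, naming 1 per gene. They were Igbp1 (r = 0.948), Ipo5 (0.937), Ipo7 (0.936), Nampt (0.935) and Baz1b (0.932). The r values describe libraries that share time points and the same scaling. None is among the 45 listed genes, and their fitted differences ran from 0.76 in Igbp1 to 2.39 in Nampt, the rate-limiting enzyme of NAD salvage. Within the 10 genes, r with Cyp7a1 was -0.907 for Hsd3b7, -0.773 for Cyp8b1 and -0.772 for Abcb11, and between -0.425 and 0.351 for the other 6.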

How the data were processed

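Per the labels and the study's methods, the authors clipped the reads, removed rRNA and aligned to mm10 (Bowtie2 2.1.0.0 and SAMtools 0.1.19.0 in the submitters' processing notes), and deposited raw counts per transcript in 5′UTR, CDS and 3′UTR. The study's methods state that reads aligned to a unique location were used. Their assignment to overlapping transcripts is not described in the sources used here. The equal counts in the shared regions of Slc10a1 and Hsd3b7 show such reads counted for each transcript. Lengths are those of the files. Regions were added and tested with edgeR 4.0.16 (R 4.3.3; TMM, quasi-likelihood F test of a 24 h cosine, mean of at least 10 reads, Benjamini-Hochberg), limma 3.58.1 for ratios (pseudocount of 0.5), DESeq2 1.42.0 and JTK_CYCLE rewritten in Python 3.11.15. SEs came from least-squares fits to log2 CPM. Permutation tests used 100000 shuffles. The edgeR, limma, DESeq2 and JTK_CYCLE fits were tested on simulated counts. The permutation tests, SEs, correlations, density order and sequence searches were not. A total limits each value by counting error. Each SD at a time comes from 2 mice. The last pair is CT24 by name, though a label field says CT00; the further run of CT16 replicate 2 was not used separately. Genes named were the 10, the listed pathway genes past the threshold or with most reads in their group, and the 5 most like Cyp7a1. Members and lists were chosen with earlier results of these data known.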

Additional observations from a re-analysis of the deposited data

How the results depend on the processing

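The Cyp7a1 rhythm passed in every alternative run, with a peak-to-trough difference of 2.69 to 3.18 (2.54 to 2.94 with each library left out). Of the 10 genes, 4 were called with JTK_CYCLE, 5 to 6 with a library left out and 4 to 6 over all settings. The time-point test called 4 to 5, whereby leaving out a library leaves a lone mouse assumed to vary like the others. All 9 ratios to Cyp7a1 and 0 of the 5′UTR ratios passed under every alternative. Of the other pathway genes, 11 were called with TMM, 3 with library totals, 2 with JTK_CYCLE, 14 with the DESeq2 likelihood ratio test and 9 to 13 with a library left out. Over all transcripts, 1948 were called, 1427 with library totals, 1251 with 1 transcript per gene (of 11747 tested), 638 with JTK_CYCLE, 2539 with the DESeq2 test and 1499 to 2062 with a library left out; the time-point test called 1225, and 2197 with library totals. The mean density of Slc27a5 was 7.37 times that of Cyp7a1 per CDS length, and 18.8 times per whole transcript length, Cyp7a1 having a 3′UTR of 2600 bases with few reads. With the replicate number as a block, 5 of the 10 and 1917 of all transcripts were called, and in the time-point test Cyp7b1 passed (adjusted p = 0.0176, against 0.0554 without the block). Mice were killed at each time point, so the replicate numbers cannot mark shared mice. Differences between replicates correlated from -0.0627 to 0.161 over 21 pairs of time points. Whether the numbers mark some other shared series was not tested. Where not stated otherwise, the cause of a change was not tested. With 2 mice per time point and a single day, small differences may have been missed, and no detection limit was estimated.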
